A study of Homo sapiens with 18 samples.

Results

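This section describes 9 Polycomb group genes, EZH1, EZH2, EED, SUZ12, JARID2, RBBP4, BMI1, CBX2 and CBX8, in Ewing sarcoma cell lines in which FLI1 transcripts were depleted. The genes were taken by symbol from 58381 rows in each of 3 count tables, with no filter on their values here, and each symbol matched 1 row per table. Ewing sarcoma is a tumour of bone and soft tissue, and the 3 lines studied, TC-32, TC-71 and A673, express EWSR1::FLI1, a fusion protein with the DNA-binding domain of the ETS transcription factor FLI1. In each line, 3 RNA-seq libraries came from cells transfected with siFLI1, an siRNA against FLI1 that also reaches the fusion transcript, and 3 from cells transfected with the negative control siNeg. Both siRNAs were used at 20 nM with a lipid reagent, so that all 18 libraries come from transfected cells. TC-32 and TC-71 were grown in RPMI medium and A673 in DMEM. A time of 48 h stands in the column names for TC-32 and TC-71, and none in those for A673. Only 1 siRNA sequence against FLI1 was used in these libraries, and the counts per gene do not separate the fusion from other FLI1 transcripts.

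Polycomb proteins keep genes silent through 2 main histone-modifying complexes. Polycomb repressive complex 2 (PRC2) methylates H3K27 through EZH2 or its paralog EZH1, each of which needs EED, a subunit that binds methylated H3K27, and SUZ12, the scaffold. RBBP4 is a histone-binding subunit that PRC2 shares with other chromatin complexes, and JARID2 is an accessory subunit that helps recruit PRC2. Polycomb repressive complex 1 (PRC1) ubiquitinates histone H2A. BMI1 (also called PCGF4) supports its ubiquitin ligase, and chromobox proteins such as CBX2 and CBX8 bind methylated H3K27. In dividing cells EZH2 is the more abundant methyltransferase and is driven by E2F factors, whereas EZH1 is also present in resting cells. EZH2 has been described as a target of the fusion and as a brake on differentiation in Ewing sarcoma.

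TC-32 libraries held between 24102487 and 33669271 counts and TC-71 libraries between 19685354 and 37234528, while those of A673 were deeper, between 114564479 and 120993595. Levels are given as CPM, counts scaled to a common library total with TMM factors computed within each line, so levels set side by side across lines come from tables scaled separately and were not tested. The siRNA target itself was lower in every siFLI1 library: FLI1 stood at 42.8 to 47.7 CPM with siNeg and 21.7 to 22.6 with siFLI1 in TC-32. In TC-71 FLI1 stood at 48 to 52.8 CPM with siNeg and 17.2 to 19.9 with siFLI1, and A673 had 75.4 to 76.8 and 17.6 to 18.3 CPM. Below, 3 levels or ratios of 1 group are those of replicates 1 to 3, and 3 log2 fold changes, medians or shares given without a line's name are for TC-32, TC-71 and A673, in that order. The log2 fold changes of FLI1 were -1.03, -1.47 and -2.09. Of 6 Ewing sarcoma markers, 5 were found in all 6 groups, while CD99 was listed at 0 in all TC-71 libraries, whose table came from another counting program. Among markers of other cells, those of skeletal muscle reached at most 0.135 CPM, sympathetic markers 0.386, epithelial markers 1.81, endothelial markers 2.43 and the leukocyte marker PTPRC 0.153. The macrophage marker CD68 was higher and moved with the siRNA, at 1.24 to 2.64 CPM with siNeg and 6.97 to 8.94 with siFLI1 in TC-32, and 6.2 to 7.82 and then 11.5 to 12.7 in A673, while TC-71 reached at most 0.152. Of the exon bases of CD68, 81.6% are shared with another gene on the same strand. Its counts are therefore uncertain, and counting programs may treat such reads differently. The endothelial marker CDH5 was also higher with siFLI1 in TC-32, at 1.25 to 1.46 against 0.126 to 0.377 CPM, and in A673, at 1.43 to 1.73 against 0.287 to 0.438, whereas PECAM1, of the same cells, was lower in both lines. The part of these markers in the results below was not tested. The labels do not say whether replicates were separate cultures, so p-values measure only the spread between these libraries.

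The promoters of EZH2, SUZ12 and EED, PRC2 genes that fell in all lines, and of EZH1, which did not, are shown first, because E2F factors and ETS factors such as FLI1 are known to read short motifs there. RefSeq promoter sequences were found for 7 of the 9 members, without CBX2 and CBX8. EZH2, JARID2, RBBP4 and BMI1 have 2 start sites among these sequences. For each member only the start site nearest the annotated start of the gene was searched. The EED window lies well inside its annotated gene, which begins at 86201212, so motifs at other start sites are not covered. Each window runs from 250 bases before to 30 bases after a start site, 5′ to 3′ on the gene's strand (GRCh38.p14), and capitals mark GGAA, the core of ETS sites, and TTTNNCGC, an E2F-type motif, on either strand. EZH2 is at chr7:148884262-148884541 on the minus strand, SUZ12 at chr17:31936757-31937036 on the plus strand, EED at chr11:86244503-86244782 on the plus strand and EZH1 at chr17:42745011-42745290 on the minus strand.
EZH2: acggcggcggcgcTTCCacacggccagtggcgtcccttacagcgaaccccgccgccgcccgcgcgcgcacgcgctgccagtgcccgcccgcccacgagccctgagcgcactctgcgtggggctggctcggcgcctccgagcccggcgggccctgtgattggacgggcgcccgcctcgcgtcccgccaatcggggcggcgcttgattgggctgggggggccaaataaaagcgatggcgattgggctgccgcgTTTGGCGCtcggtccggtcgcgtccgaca
SUZ12: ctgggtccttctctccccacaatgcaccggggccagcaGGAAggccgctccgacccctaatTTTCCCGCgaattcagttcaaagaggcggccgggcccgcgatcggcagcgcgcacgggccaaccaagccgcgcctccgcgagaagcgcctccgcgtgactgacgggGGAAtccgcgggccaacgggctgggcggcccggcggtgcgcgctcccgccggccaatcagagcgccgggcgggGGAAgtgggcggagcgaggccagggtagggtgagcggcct
EED: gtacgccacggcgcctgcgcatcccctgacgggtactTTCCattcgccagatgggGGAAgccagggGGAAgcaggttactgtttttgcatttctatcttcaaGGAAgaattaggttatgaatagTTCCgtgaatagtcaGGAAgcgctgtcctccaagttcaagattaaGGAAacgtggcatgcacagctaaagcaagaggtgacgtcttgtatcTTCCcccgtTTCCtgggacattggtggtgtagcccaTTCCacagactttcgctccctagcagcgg
EZH1: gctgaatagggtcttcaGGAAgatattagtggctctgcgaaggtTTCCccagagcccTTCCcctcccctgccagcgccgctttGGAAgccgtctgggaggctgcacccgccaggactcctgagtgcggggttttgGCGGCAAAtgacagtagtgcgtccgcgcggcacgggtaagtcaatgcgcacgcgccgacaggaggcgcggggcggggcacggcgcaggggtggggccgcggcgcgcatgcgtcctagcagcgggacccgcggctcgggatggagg
The E2F-type motif was in 6.5% of all 35116 promoter windows of this length. It was found in 3 of the 7 members: once in EZH2, where it begins at base 2 after the start site, once in SUZ12, beginning at base -189 and overlapping a GGAA core, and once in EZH1, beginning at base -115, counted from the start site. GGAA was in 94.5% of all windows. The member windows held it 10 times in EED, 4 times each in EZH1, SUZ12 and RBBP4, 3 times in BMI1, 2 times in JARID2 and once in EZH2. The longer ETS-type motif CCGGAAG, in 9.9% of all windows, and the tandem GGAAGGAA, in 3.5%, were each found 0 times in the 7 member windows. EZH1 and EZH2 thus both hold the E2F-type letters. These are matches of letters, and neither binding nor a part of the letters in the RNA levels was tested.

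After siFLI1, the members fell more often than they rose, with EZH2 the largest fall in TC-32 and TC-71, and CBX2 and EZH2 the largest in A673. In TC-32, 8 of the 9 members changed at an edgeR adjusted p under 0.05, 6 lower and 2 higher; of all 16227 genes tested, 81.4% changed and 40.1% were lower. In TC-71, 7 members changed and all 7 were lower, where 71.9% of all 17085 genes tested changed and 35% were lower. In A673 all 9 members were lower, where 71% of 18444 genes changed and 35.4% were lower. The share of members changed is thus near the share of all genes changed in TC-32 and TC-71, while the members that were lower, 6, 7 and 9 of 9, are a larger share than among all genes, a difference that was not tested and that concerns genes chosen with earlier results of these data known. The siNeg and siFLI1 libraries did not overlap for 8 members in TC-32, against 82.6% of all genes tested, for 7 in TC-71, against 73.8%, and for 9 in A673, against 73.6%. The 9 members had median log2 fold changes of -0.79, -0.22 and -0.61, beside 0.0222, 0.0181 and -0.0066 over all genes tested. A fall of at least 2-fold was seen for 4 members in TC-32 (EZH2, SUZ12, CBX2 and EED), for EZH2 alone among the 9 in TC-71, and for EZH2 and CBX2 in A673.

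The genes lower in all 3 lines were EZH2, EED, SUZ12, RBBP4 and CBX2, which is 5 of 9; of the 14233 genes tested in every line, 19% were lower in all 3. The EED call in A673 is lost without any one of 3 libraries, which leaves 4 of 9. EZH1 and JARID2 changed in opposite directions between lines. BMI1 and CBX8 were lower in 2 lines and did not pass the test in the remaining line. Since the libraries are from whole cultures, less RNA per cell and fewer cells that carry the RNA cannot be told apart in any of these results.

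**Figure D1:**
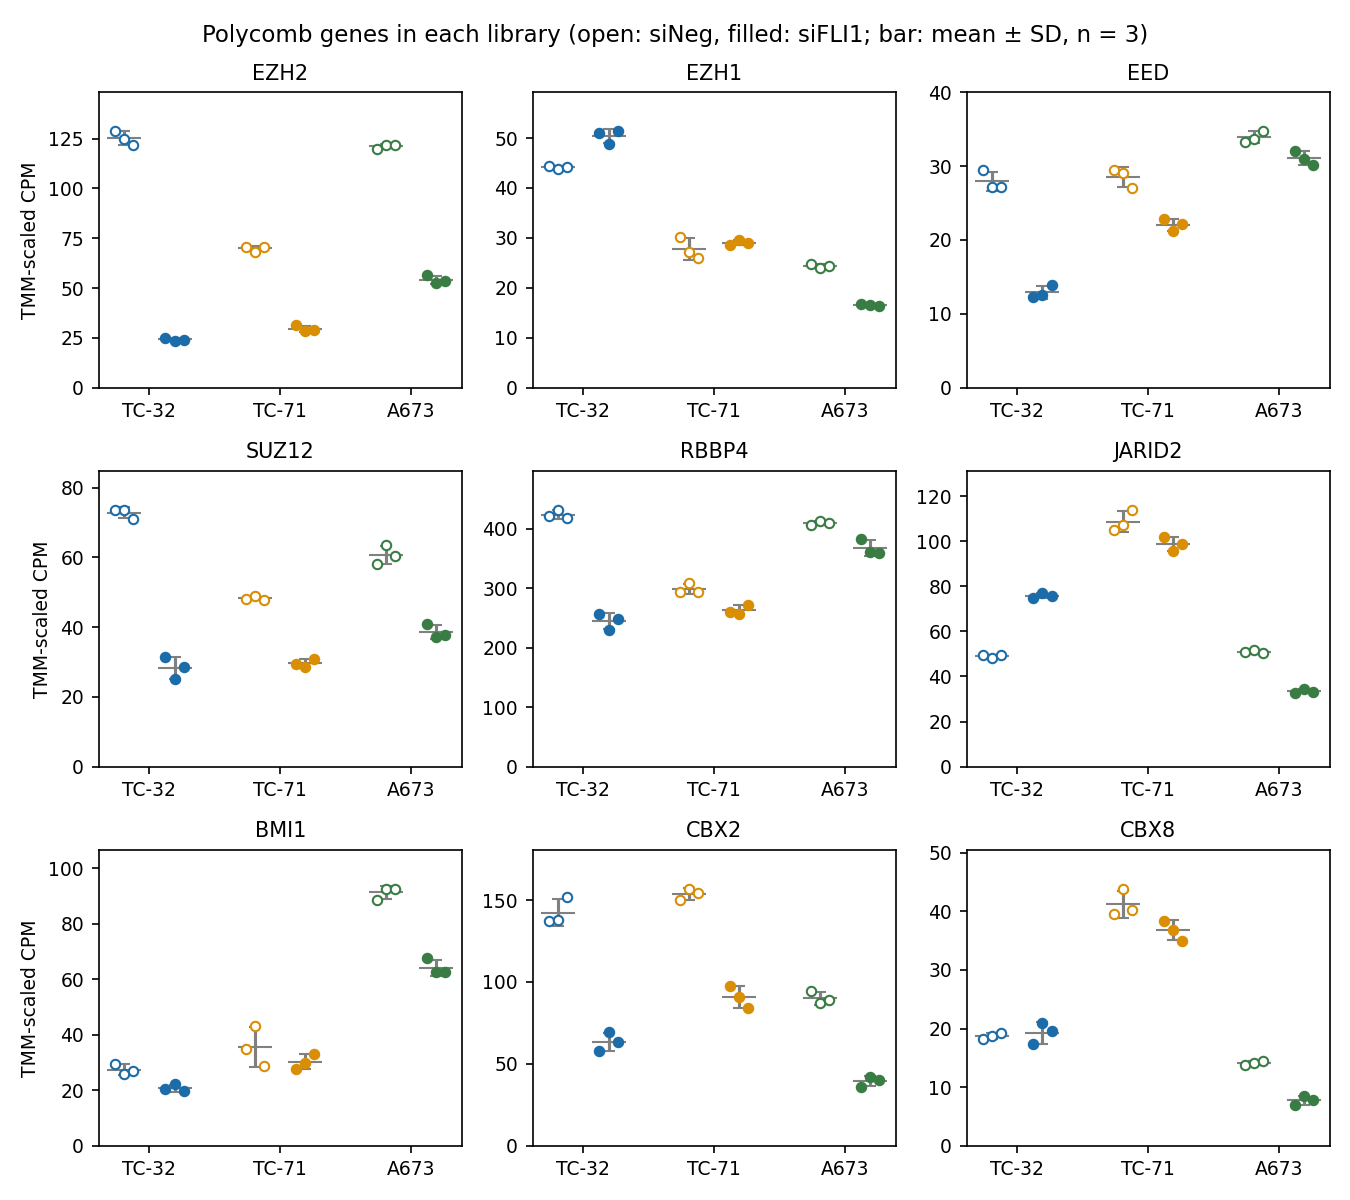
TMM-scaled CPM (vertical axis, from 0) of the 9 members in each of 18 libraries, by cell line; open points are siNeg, filled points siFLI1, and bars give mean ± SD of 3 libraries. The filled EZH2, SUZ12 and CBX2 points lie below the open ones in each line, while JARID2 lies higher in TC-32 and lower in TC-71 and A673.

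**Figure D2:**
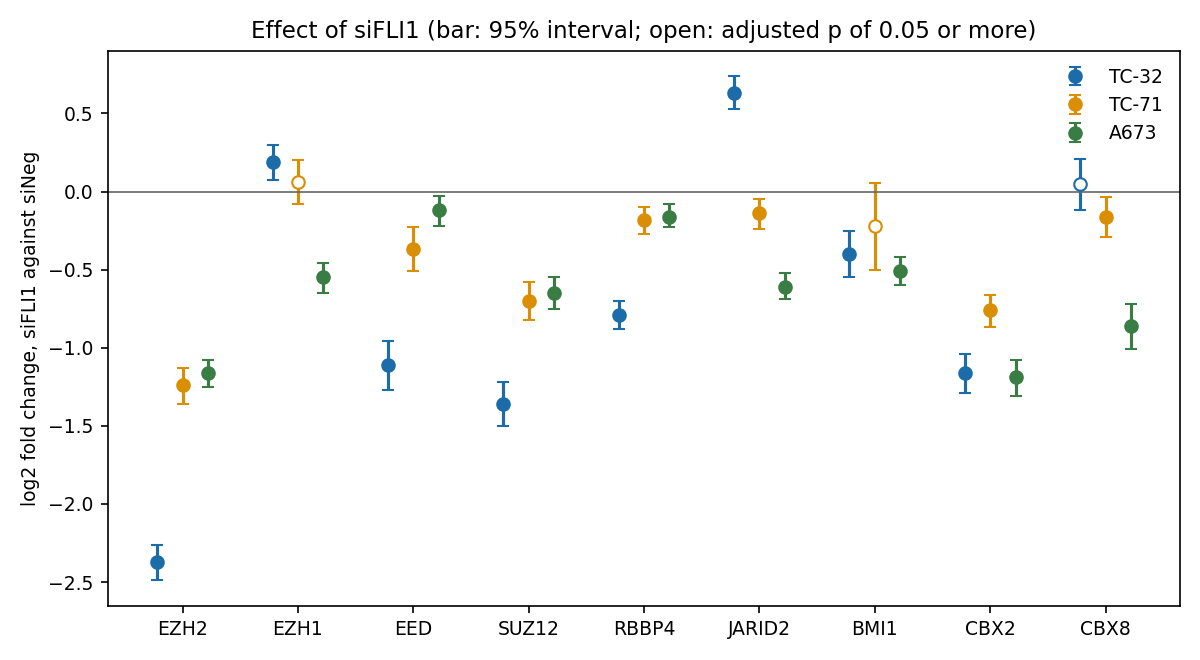
Log2 fold change of siFLI1 against siNeg (vertical axis) for each member in TC-32, TC-71 and A673; bars are 95% confidence intervals and open points did not reach an adjusted p under 0.05. EZH2 in TC-32 lies lowest at -2.37, and the open points are EZH1 and BMI1 in TC-71 and CBX8 in TC-32.

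EZH2 (ENSG00000106462.10, chr7:148807257-148884321, minus strand), the PRC2 methyltransferase of dividing cells, had the largest change of the 9 members in TC-32 and TC-71. In TC-32 its level was 129, 125 and 122 CPM in the siNeg libraries and 24.9, 23.6 and 24.1 CPM in the siFLI1 libraries. The fall was 5.18-fold (log2 fold change -2.37, SE 0.0542, edgeR adjusted p = 3.46e-22). TC-71 libraries went from 70.4, 68.3 and 70.8 CPM to 31.3, 28.4 and 28.9 CPM, a 2.37-fold fall (log2 fold change -1.24, SE 0.0571, edgeR adjusted p = 6.16e-18). In A673 it went from 120, 122 and 122 CPM to 56.4, 52.5 and 53.6 CPM, a 2.24-fold fall (log2 fold change -1.16, SE 0.0399, edgeR adjusted p = 1.92e-13). No siFLI1 library overlapped a siNeg library in any line. The siNeg levels of TC-32 and A673 were close to each other, and those of TC-71 were lower, but the siFLI1 levels ran in another order, highest in A673 and lowest in TC-32. Relative to siNeg, EZH2 had 19.3%, 42.3% and 44.7% of its level left, whereas FLI1 had 48.9%, 35.9% and 23.5% left. TC-32 thus kept the most FLI1 and the least EZH2.

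EZH1 (ENSG00000108799.12, chr17:42700275-42745049, minus strand), the paralog with weaker methyltransferase activity, did not fall with EZH2 in TC-32 or TC-71. In TC-32 it rose from 44.5, 43.9 and 44.2 CPM to 51, 48.9 and 51.5 CPM (log2 fold change 0.19, SE 0.0551, edgeR adjusted p = 0.00291), with no overlap between the groups. In TC-71 the siNeg libraries at 30.2, 27.2 and 26 CPM and the siFLI1 libraries at 28.6, 29.6 and 28.9 CPM overlapped (log2 fold change 0.06, SE 0.0683, edgeR adjusted p = 0.435). A673 showed a fall of EZH1, from 24.7, 23.9 and 24.3 CPM to 16.8, 16.5 and 16.4 CPM (log2 fold change -0.55, SE 0.0459, edgeR adjusted p = 1.66e-08). EZH1 was highest in TC-32 and lowest in A673 under either siRNA, and among its 6 groups only those of TC-71 overlapped each other.

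The ratio of EZH2 to EZH1, taken in each library on counts per exon length, does not depend on the scaling of the library. In TC-32 it was 1.88, 1.84 and 1.79 in the siNeg libraries and 0.317, 0.313 and 0.303 in the siFLI1 libraries. On this per-length scale the excess of EZH2 over EZH1 in TC-32 had turned into an excess of EZH1. The log2 ratio fell by 2.56 (exact two-sided permutation test, p = 0.1, n = 3 and 3). In TC-71 the ratio was 1.51, 1.63 and 1.77 with siNeg and 0.71, 0.623 and 0.649 with siFLI1, and the log2 ratio fell by 1.31 (exact permutation p = 0.1), which moved it below equality on this per-length scale. The side of equality depends on the lengths used in TC-71, where the ratio of counts without them was 1.09, 0.961 and 1 with siFLI1. In TC-32 it was below equality in every siFLI1 library without them too, at 0.489, 0.483 and 0.467. The lengths count every annotated exon, 10774 bases for EZH2 and 6988 for EZH1, and the transcripts in use may be shorter. Other lengths would move each ratio and could move its side of equality, but not the fall in the log2 ratio. In A673 the siNeg libraries had 3.16, 3.3 and 3.25 and the siFLI1 libraries 2.17, 2.07 and 2.13. EZH2 thus remained above EZH1 on the per-length scale, and the log2 ratio fell by 0.61 (exact permutation p = 0.1). With 3 libraries against 3, 0.1 is the smallest p that this exact permutation test can give, and no ratio of the 2 groups overlapped in any line. With these lengths, EZH1 made up 35.2% of the summed per-length level of both genes in TC-32 with siNeg and 76.3% with siFLI1. The sum itself was lower in each line, at 17.9 and then 9.46 CPM per kb in TC-32, 10.5 and 6.89 in TC-71, and 14.7 and 7.4 in A673.

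**Figure D3:**
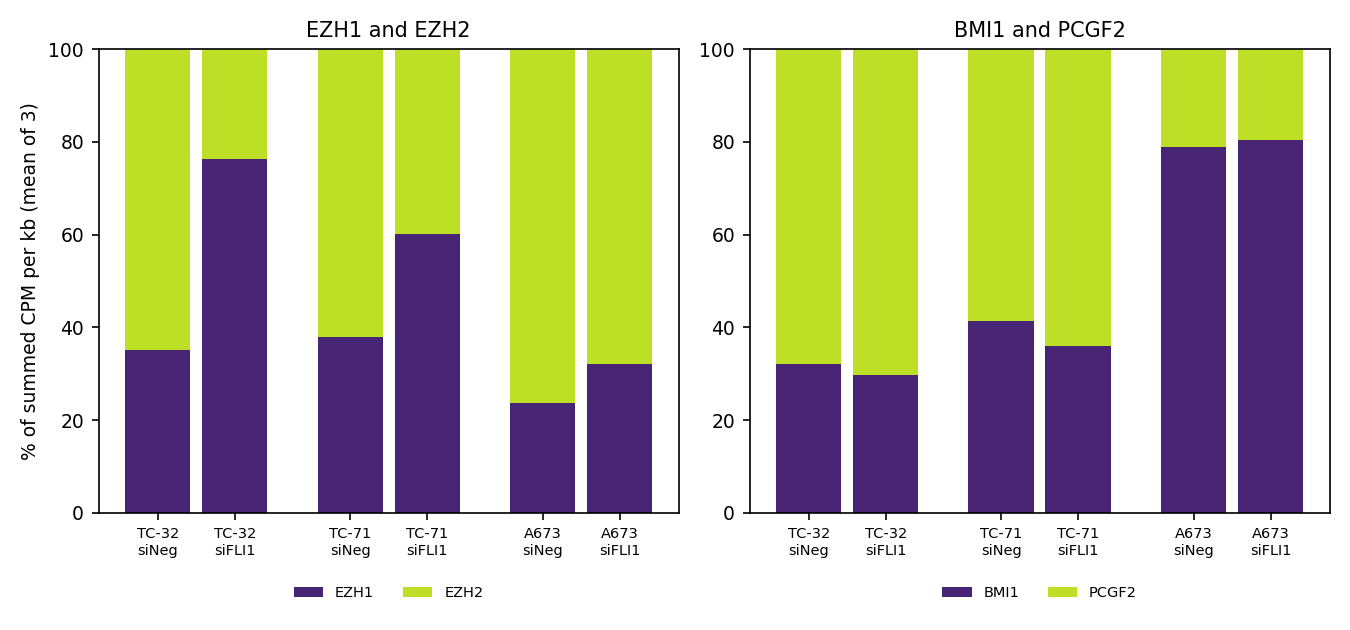
Shares (vertical axis, % of summed CPM per kb of exon, mean of 3 libraries) of EZH1 and EZH2, left, and of BMI1 and its paralog PCGF2, right, in each line with siNeg and siFLI1. The EZH1 share rises from 35.2% to 76.3% in TC-32, and the BMI1 share is highest in A673, at 79% with siNeg and 80.5% with siFLI1.

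SUZ12 (ENSG00000178691.10, chr17:31937007-32001038, plus strand), the scaffold of PRC2, fell in each line. Its level went from 73.7, 73.7 and 70.9 CPM to 31.5, 25.2 and 28.5 CPM in TC-32, a 2.57-fold fall (log2 fold change -1.36, SE 0.0666, edgeR adjusted p = 3.01e-15). TC-71 libraries went from 48.2, 48.9 and 47.7 CPM to 29.5, 28.5 and 31 CPM, or 1.62-fold (log2 fold change -0.70, SE 0.0597, edgeR adjusted p = 1.28e-11). In A673 it went from 58.1, 63.4 and 60.4 CPM to 40.9, 37.2 and 37.7 CPM, or 1.57-fold (log2 fold change -0.65, SE 0.0484, edgeR adjusted p = 4.2e-09). The groups did not overlap in any line, and the siFLI1 levels of TC-32 and TC-71 overlapped each other although their siNeg levels did not. SUZ12 has a nearly identical pseudogene copy, SUZ12P, with mean siNeg levels of 9.02, 11.8 and 4.39 CPM in the 3 lines, so that the split of reads between them is uncertain. With both summed, an alternative added after seeing the data, the log2 fold changes were -1.24, -0.58 and -0.65, and all stayed past the threshold.

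EED (ENSG00000074266.19, chr11:86201212-86278813, plus strand), the subunit that reads methylated H3K27, fell more unevenly. In TC-32 it went from 29.4, 27.2 and 27.2 CPM to 12.3, 12.5 and 13.9 CPM, a 2.16-fold fall (log2 fold change -1.11, SE 0.076, edgeR adjusted p = 1.35e-12). TC-71 libraries went from 29.5, 29.1 and 27 CPM to 22.8, 21.2 and 22.1 CPM, or 1.29-fold (log2 fold change -0.37, SE 0.0691, edgeR adjusted p = 2.44e-05). In A673 the change was small, from 33.3, 33.6 and 34.8 CPM to 32.1, 31 and 30.2 CPM (log2 fold change -0.12, SE 0.0439, edgeR adjusted p = 0.0196). The groups did not overlap in any line, but the call in A673 rests on single libraries. It is lost without siNeg replicate 2 (log2 fold change -0.13, edgeR adjusted p = 0.0507), without siNeg replicate 3 (-0.10, 0.104) and without siFLI1 replicate 3 (-0.097, 0.124). Scaled by library size alone the A673 value is -0.23.

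RBBP4 (ENSG00000162521.18, chr1:32651142-32686211, plus strand), the histone chaperone shared with other complexes, had the highest level per exon length of the 9 members in every group. In TC-32 it went from 421, 432 and 418 CPM to between 230 and 257 CPM, a 1.73-fold fall (log2 fold change -0.79, SE 0.0433, edgeR adjusted p = 1.67e-14). The falls in TC-71 and A673 were small, from 294, 308 and 293 to 260, 257 and 272 CPM (log2 fold change -0.18, SE 0.0418, edgeR adjusted p = 0.000315) and from 406, 412 and 410 to 383, 360 and 359 CPM (log2 fold change -0.16, SE 0.0354, edgeR adjusted p = 0.000895). In A673 the value is -0.26 when scaled by library size alone. Of its exon bases, 22.8% are shared with SYNC on the opposite strand. The libraries were made with a stranded kit per the labels, but whether strand was used in counting is not given in the sources used here, so reads of the shared part may belong to either gene.

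JARID2 (ENSG00000008083.13, chr6:15246069-15522042, plus strand), which helps bring PRC2 to its targets, moved in opposite directions. In TC-32 it rose 1.55-fold, from 49.4, 48.1 and 49.3 CPM to 75, 77.1 and 75.5 CPM (log2 fold change 0.63, SE 0.0514, edgeR adjusted p = 4.02e-11). A673 showed the opposite, a 1.52-fold fall from 50.7, 51.9 and 50.2 CPM to 32.8, 34.6 and 33 CPM (log2 fold change -0.61, SE 0.042, edgeR adjusted p = 1.76e-09). In TC-71, where its level was the highest, it was slightly lower, at 105, 107 and 114 CPM with siNeg and 102, 95.7 and 98.6 CPM with siFLI1 (log2 fold change -0.14, SE 0.0479, edgeR adjusted p = 0.00888). The groups were apart in each line, and TC-32 and A673 started from nearly the same siNeg level. The TC-71 call is lost without siFLI1 replicate 2, at a log2 fold change of -0.12 and an edgeR adjusted p of 0.0715.

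Among the PRC1 members, CBX2 (ENSG00000173894.10, chr17:79778148-79787983, plus strand), a chromobox protein that reads methylated H3K27 and compacts chromatin, fell in all lines. In TC-32 it went from 137, 138 and 152 CPM to 57.8, 69.2 and 63.1 CPM, a 2.24-fold fall (log2 fold change -1.16, SE 0.0594, edgeR adjusted p = 2.56e-14). In A673 the fall was of like size, 2.29-fold, from 94.4, 86.9 and 88.9 CPM to 36, 41.9 and 40.3 CPM (log2 fold change -1.19, SE 0.0538, edgeR adjusted p = 6.49e-12). TC-71 libraries went from 150, 157 and 154 CPM to 97.3, 90.5 and 83.9 CPM, or 1.7-fold (log2 fold change -0.76, SE 0.0503, edgeR adjusted p = 3.5e-14). No groups overlapped within a line. In A673 the fitted falls of CBX2 and EZH2, -1.19 and -1.16, lay within their standard errors of each other.

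CBX8 (ENSG00000141570.10, chr17:79792132-79801683, minus strand), another chromobox reader, is the neighbour of CBX2 on chromosome 17 and is transcribed on the opposite strand. It fell 1.82-fold in A673, from 13.7, 14.1 and 14.5 CPM to 6.99, 8.53 and 7.73 CPM (log2 fold change -0.86, SE 0.0688, edgeR adjusted p = 1.02e-08). In TC-32 the siNeg libraries at 18.2, 18.7 and 19.3 CPM overlapped the siFLI1 libraries at 17.3, 21 and 19.6 CPM (log2 fold change 0.047, SE 0.0791, edgeR adjusted p = 0.588), with a 95% interval from -0.12 to 0.21 on the log2 scale. The sign of that value turns to -0.027 without siFLI1 replicate 2. In TC-71, its highest level, CBX8 went from 39.6, 43.9 and 40.2 CPM to 38.4, 36.9 and 35 CPM (log2 fold change -0.16, SE 0.0619, edgeR adjusted p = 0.019). That call is lost without siNeg replicate 2 (-0.13, edgeR adjusted p = 0.0778), siFLI1 replicate 2 (-0.16, 0.0516) or siFLI1 replicate 3 (-0.13, 0.0994). CBX2 and CBX8 therefore both fell in A673, while in TC-32 only CBX2 passed the test.

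BMI1 (ENSG00000168283.13, chr10:22321099-22331484, plus strand), the PRC1 subunit known as a stem cell and proliferation factor, was most abundant in A673. There it fell from 88.7, 92.7 and 92.5 CPM to 67.5, 62.5 and 62.6 CPM (log2 fold change -0.51, SE 0.0425, edgeR adjusted p = 1.87e-08). In TC-32 it fell from 29.4, 25.7 and 27.1 CPM to 20.6, 22.1 and 19.6 CPM (log2 fold change -0.40, SE 0.0727, edgeR adjusted p = 2.42e-05). In TC-71 the siNeg libraries were spread widely, at 35, 43.3 and 28.9 CPM, and overlapped the siFLI1 libraries at 27.8, 29.8 and 33.1 CPM (log2 fold change -0.22, SE 0.126, edgeR adjusted p = 0.136). Without siNeg replicate 3, the lowest of the siNeg libraries, the TC-71 value is -0.37 with an edgeR adjusted p of 0.000218, and with no low-count filter it is -0.23 with 0.00313. BMI1 shares 22.8% of its exon bases with the readthrough gene COMMD3-BMI1 on the same strand, which was given 8.08 CPM in TC-32 and 4.74 CPM in A673 with siNeg, and at most 1 count per library in TC-71. Summed with it, an alternative added after seeing the data, BMI1 gave -0.28, -0.22 and -0.49 on the log2 scale, with the same calls. In TC-71 the sum adds at most 1 count per library, so it could not move the value and is no check there.

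Per kilobase of exon, which allows genes to be compared, the order of the members differed between lines and siRNAs. With siNeg, RBBP4 led in each line, at 44.7, 31.5 and 43.2 CPM per kb. CBX2 came next in TC-32 and TC-71, at 25.1 and 27.1 CPM per kb, and BMI1 in A673, at 20.8. EZH2 ranked 3rd of 9 in TC-32 with siNeg, at 11.6 CPM per kb, and 8th with siFLI1, at 2.24. In TC-71 it moved from 7th, at 6.48 CPM per kb, to last, at 2.74. In A673 it moved from 4th, at 11.3 CPM per kb, to 6th, at 5.03. EZH2 did not overlap its neighbours in these orders. Neighbours that did overlap with siNeg were EZH1 and BMI1 in TC-32, CBX8 with BMI1, BMI1 with SUZ12 and EED with EZH1 in TC-71, and EZH1 and CBX8 in A673. With siFLI1 they were JARID2 with CBX2, BMI1 with CBX8 and CBX8 with SUZ12 in TC-32, and CBX2 with JARID2 in TC-71. Exon length counts every annotated exon of a gene, so a gene whose cells use short isoforms is understated.

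BMI1 and PCGF2 take the same place in canonical PRC1. Of their summed per-length level, BMI1 made up 79% in A673 with siNeg but only 32% in TC-32 and 41.3% in TC-71. After siFLI1 its share was 29.7%, 35.9% and 80.5%, and the ranges of the 2 groups overlapped in each of the 3 lines. Of the exon bases of PCGF2, 61.5% are shared with CISD3 and another gene on the opposite strand, so with the strand setting unknown its reads, and these shares, are uncertain.

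The size of the effect differed between the lines for most members, by interaction contrasts in a single edgeR model of all 18 libraries. Between TC-32 and A673, 7 of 9 members differed, against 62.1% of all genes tested. Between TC-32 and TC-71, 6 differed, against 53.6%, and between A673 and TC-71, 6 differed, against 51.6%. These shares are not far from the background, and the 3 contrasts share the libraries of each line. The differing members were 4 lower and 3 higher for TC-32 minus A673, and 5 lower and 1 higher in each contrast with TC-71. All genes called leaned the same way, with 6411 lower and 4093 higher for TC-32 minus TC-71 (median -0.107). For A673 minus TC-71 they were 5570 and 4553 (median -0.075), and for TC-32 minus A673 6321 and 5858 (median 0.015). The falls of EZH2, EED, SUZ12 and RBBP4 were larger in TC-32 than in either other line. EZH2 differed by -1.19 (SE 0.0656, edgeR adjusted p = 2.43e-17) between TC-32 and A673 and by -1.14 (SE 0.0711, edgeR adjusted p = 1.35e-15) between TC-32 and TC-71. EED differed by -0.96 and -0.75, SUZ12 by -0.68 and -0.67, and RBBP4 by -0.61 and -0.61 in the same contrasts, with SE between 0.0579 and 0.0914 and edgeR adjusted p of at most 9.35e-08. Between A673 and TC-71, no difference passed the threshold for these subunits other than EED, with 95% intervals from -0.083 to 0.18 for EZH2, from -0.16 to 0.19 for SUZ12 and from -0.13 to 0.11 for RBBP4.

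Other members set A673 apart instead. For EZH1 the difference of the effects was 0.77 (SE 0.0741, edgeR adjusted p = 4.07e-11) for TC-32 minus A673 and -0.65 (SE 0.0776, edgeR adjusted p = 1.05e-08) for A673 minus TC-71. CBX8 gave 0.94 and -0.73 in these contrasts, with edgeR adjusted p = 7.44e-10 and 5.71e-08. For both genes TC-32 and TC-71 did not differ past the threshold, with 95% intervals from -0.04 to 0.29 for EZH1 and from -0.0051 to 0.41 for CBX8. Both passed with RLE factors, with library size alone and with DESeq2. In these 3 settings EZH1 was at 0.19 (adjusted p = 0.0383 and 0.0488 with edgeR and 0.019 with DESeq2) and CBX8 at 0.27 (0.0257, 0.0284 and 0.0236). CBX8 also passed with edgeR in a fit of only the 12 libraries of both lines, at 0.23 (0.0462), and without siFLI1 replicate 1 of TC-32, at 0.27 (0.0289). JARID2 differed in all 3 contrasts, by 1.26 for TC-32 against A673, 0.77 for TC-32 against TC-71 and -0.49 for A673 against TC-71, with edgeR adjusted p of at most 3.47e-08. CBX2 fell less in TC-71 than in the other lines, with differences of -0.41 (SE 0.0855, edgeR adjusted p = 0.000145) for TC-32 minus TC-71 and -0.46 (SE 0.0829, edgeR adjusted p = 1.98e-05) for A673 minus TC-71. TC-32 minus A673 gave CBX2 an interval from -0.12 to 0.23.

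The contrasts of A673 and TC-71 for EED (0.21, edgeR adjusted p = 0.0269) and BMI1 (-0.32, 0.0325) were near the threshold. EED lost its call without any one of 7 libraries: siNeg replicates 1 and 2 and siFLI1 replicate 2 of TC-71, and siNeg replicates 1 and 2 and siFLI1 replicates 1 and 2 of A673, with values between 0.17 and 0.20. Scaled by library size alone it gave 0.15 (edgeR adjusted p = 0.114). BMI1 lost its call without siNeg replicates 1 or 3 or siFLI1 replicate 3 of TC-71, or siNeg replicates 2 or 3 or siFLI1 replicates 2 or 3 of A673, with values between -0.33 and -0.20, the latter without siNeg replicate 3 of TC-71. With RLE factors it gave -0.27 (edgeR adjusted p = 0.0783), with DESeq2 -0.26 (0.0879), and in a fit of only the 12 libraries of both lines -0.25 (0.174). The contrast of TC-32 and TC-71 for BMI1 passed, among the alternatives run, only without siNeg replicate 2 of TC-71 (-0.33, edgeR adjusted p = 0.0113). In both contrasts with A673, cell line, culture medium and sequencing depth cannot be told apart, nor can time, which the A673 column names lack. In both contrasts with TC-71, cell line and counting program cannot be told apart. The log2 fold changes of FLI1 itself were unequal, at -1.03, -1.47 and -2.09, and the part of this in the contrasts was not tested.

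**Figure D4:**
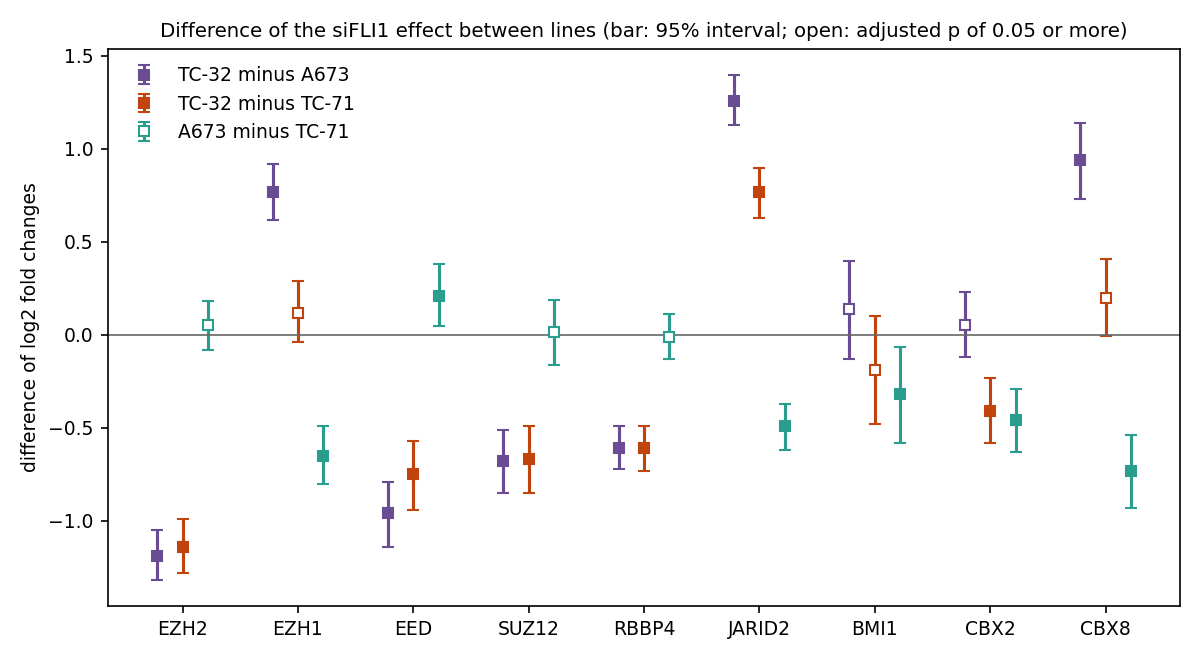
Differences between lines in the siFLI1 effect (vertical axis, difference of log2 fold changes) for each member; bars are 95% confidence intervals, and open points did not reach an adjusted p under 0.05. EZH2, EED, SUZ12 and RBBP4 lie below 0 in both contrasts of TC-32, and JARID2 lies highest at 1.26 for TC-32 minus A673.

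The other genes of the Polycomb system were read from lists named by complex. Genes of these lists named below passed the test unless said otherwise, with edgeR adjusted p of at most 0.0115 and SE between 0.0358 and 0.176 on the log2 scale. Among 8 other PRC2 subunits and partners, 5 of 7 tested were lower and 2 higher in TC-32, 4 of 8 were lower and 0 higher in TC-71, and 5 of 7 were lower and 2 higher in A673, with list medians of -0.32, -0.27 and -0.27. Over all genes tested, for this and the lists that follow, 40.1%, 35% and 35.4% were lower and 41.3%, 36.8% and 35.6% higher, with medians of 0.0222, 0.0181 and -0.0066. EPOP, which links PRC2 to elongin, had lower levels in all lines (log2 fold changes -1.54, -1.09 and -0.75). RBBP7, the paralog of RBBP4, was lower as well, at -0.88, -0.49 and -0.19, as was PHF19, a Polycomb-like protein that reads H3K36 methylation, at -0.22, -0.84 and -0.83. MTF2, a second Polycomb-like protein, was lower in TC-32 at -0.39, higher in A673 at 0.27 and not past the test in TC-71 (edgeR adjusted p = 0.928).

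Of 10 other canonical PRC1 genes, 5 rose and 4 fell in TC-32, 4 rose and 4 fell in TC-71, and 3 rose and 6 fell in A673, with medians of 0.071, 0.022 and -0.22. The 9, 8 and 9 of 10 that changed stand beside 81.4%, 71.9% and 71% of all genes, so most of the list changed as most genes did. SCML2, a germline-enriched Polycomb protein, fell, with log2 fold changes of -1.78, -1.29 and -0.81. The polyhomeotic genes PHC2 and PHC3, whose proteins join PRC1 complexes into larger assemblies, rose in all lines, PHC2 by 0.58, 1.03 and 0.73 and PHC3 by 0.80, 0.26 and 0.33. CBX7, a chromobox gene of differentiated cells, rose in TC-32 (0.77) and fell in A673 (-0.83), with -0.057 in TC-71, which did not pass the test.

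Of 13 genes of variant PRC1, 10 fell and 2 rose in TC-32, 5 fell and 2 rose in TC-71, and 7 fell and 3 rose in A673, with medians of -0.36, -0.098 and -0.19, where 40.1%, 35% and 35.4% of all genes fell. In TC-71, 5 of 13 is near that share. AUTS2, a subunit tied to activation in neural cells, rose in all lines by 1.10, 0.66 and 1.14, and MGA (ENSG00000174197.16), a transcription factor of the PCGF6 complex, fell, at -0.36, -0.20 and -0.19. PCGF3, a paralog of BMI1, was lower in TC-32 and A673 but higher in TC-71, at -0.27, 0.28 and -0.21. Among the genes of the deubiquitinase PR-DUB and the DNA-binding complex PhoRC, 6 of 8 tested fell and 1 rose in TC-32, 4 of 7 fell and 2 rose in TC-71, and 4 of 8 fell and 0 rose in A673, against the same shares of all genes, with medians of -0.27, -0.16 and -0.16. SFMBT1, a PhoRC subunit, fell, at -1.98, -0.70 and -0.66, as did YY1, its DNA-binding partner, at -0.20, -0.16 and -0.28. FOXK1, a PR-DUB partner, had 0.10, 0.15 and -0.23, of which the TC-32 value did not pass the test (edgeR adjusted p = 0.0566). The H3K27 demethylase KDM6B rose in TC-32 and TC-71 and fell in A673, at 0.57, 0.78 and -0.22. Without siFLI1 replicate 1 its A673 value is -0.14. KDM6A was higher in TC-71 and lower in A673, at 0.019, 0.28 and -0.28, and did not pass the test in TC-32 (edgeR adjusted p = 0.756).

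Because EZH2 is tied to proliferation, a list of 20 cell cycle and E2F-driven genes was read beside it. All 20 were lower in TC-32 and in TC-71, and 19 of 20 in A673, against 40.1%, 35% and 35.4% of all genes, with median log2 fold changes of -3.14, -1.86 and -0.96. The proliferation marker MKI67 went from 620 ± 9.15 to 71.1 ± 5.39 CPM in TC-32 (SD, n = 3). In TC-71 MKI67 went from 697 ± 26.6 to 211 ± 13.3 CPM, and in A673 from 550 ± 5.13 to 220 ± 7.72 CPM. The kinase PLK1 had log2 fold changes of -3.27, -1.97 and -1.48, and the transcription factor E2F2 of -4.18, -2.59 and -2.10. The list median was lowest in TC-32 and nearest 0 in A673, and EZH2 was also lowest in TC-32, but its TC-71 and A673 values lay close together. The part of this fall in the changes of EZH2, EED, SUZ12 and RBBP4 was not tested.

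Of 14 genes that have been described as silenced through EZH2 in tumour cells, 8 of 12 tested rose and 3 fell in TC-32, 8 of 11 rose and 3 fell in TC-71, and 7 of 11 rose and 4 fell in A673. Of all genes tested, 41.3%, 36.8% and 35.6% rose. The list medians were 1.32, 0.84 and 0.18, beside 0.0222, 0.0181 and -0.0066 over all genes. FBXO32, a ubiquitin ligase subunit known from muscle atrophy, rose by log2 fold changes of 3.70, 2.03 and 1.57, and KLF2, a transcription factor of quiescence, by 2.22, 1.88 and 1.00. EPHB2, an ephrin receptor, rose by 2.78, 0.84 and 0.18. In A673 its call is lost with library size alone, at 0.08 (edgeR adjusted p = 0.239), and without siNeg replicate 2, at 0.17 (edgeR adjusted p = 0.0559). GAP43, a growth cone protein, went the other way in TC-32 and TC-71, at -0.91, -1.42 and 0.46. No measure of H3K27 methylation is among these data, so whether these genes carry the mark in these lines was not tested.

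**Figure D5:**
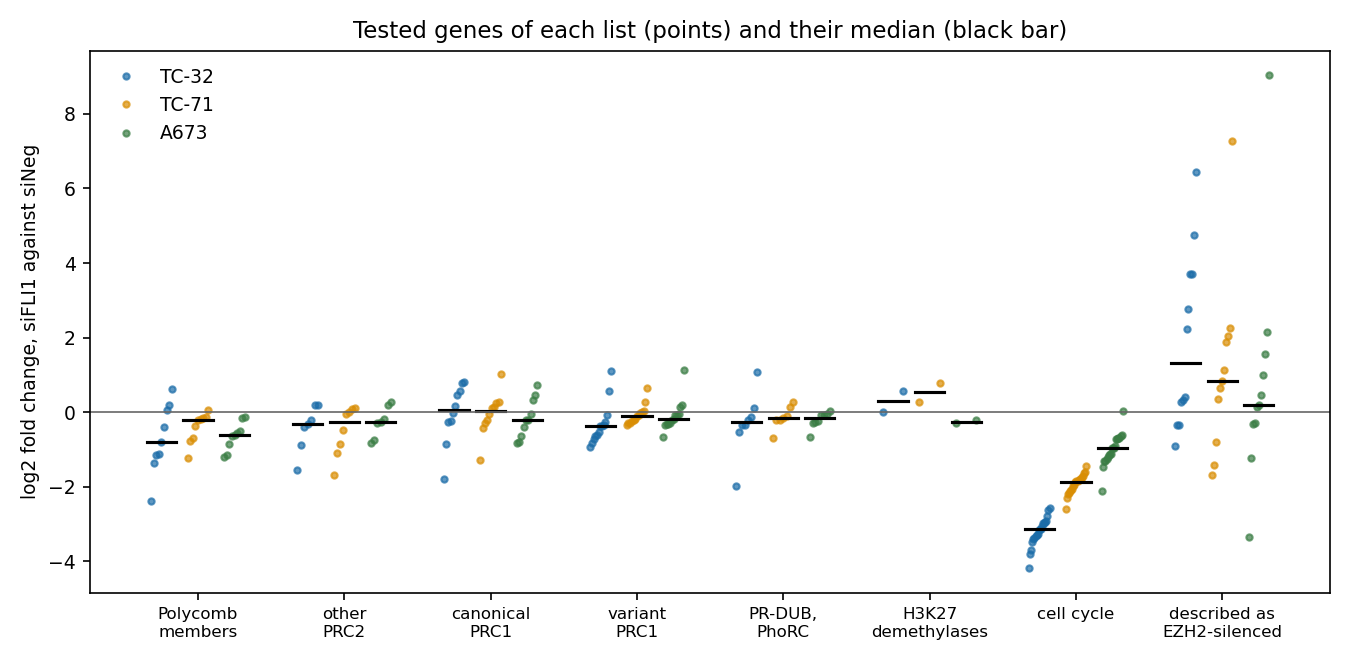
Log2 fold change of siFLI1 against siNeg (vertical axis) of each tested gene in the 9 members and 7 lists, by line; black bars are medians. The cell cycle genes lie lowest, with medians of -3.14, -1.86 and -0.96, and the genes described as silenced through EZH2 spread on both sides of 0.

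Genes with the pattern most like that of EZH2 were found by the root mean square difference in log2 CPM, centred on the siNeg mean of each line, over 18 libraries and 14233 genes. The nearest was FADS1, a fatty acid desaturase, at 0.0586, with log2 fold changes of -2.46, -1.35 and -1.14. It was followed by ANP32E, a histone chaperone, at 0.0821, HPRT1, a purine salvage enzyme, at 0.101, CCDC77 at 0.104 and TIMELESS, a replication fork protein, at 0.116. TIMELESS had -2.33, -1.47 and -1.02. In each of these genes the TC-32 fall was the largest, which follows from picking them for their likeness to EZH2. Nearest to CBX2 were EMC9 at 0.0954, PROSER2 at 0.0981, FUZ at 0.123, PXMP2 at 0.125 and RANGRF at 0.128. PROSER2 had -1.06, -0.76 and -1.20 on the log2 scale. Its fall was smallest in TC-71, like that of CBX2, which again follows from the choice. Among the members themselves, the closest pair by the same measure was EED and RBBP4 at 0.164, followed by EZH1 and CBX8 at 0.198 and EZH1 and JARID2 at 0.211. EZH2 was nearest to SUZ12, at 0.515, and farthest from JARID2, at 1.33. These distances describe the 18 libraries and carry no test.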

How the data were processed

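RNA-seq was done on 18 libraries, 3 per siRNA and line. The tables that the authors deposited hold expected counts per gene for TC-32 and A673 (RSEM, by the table names) and whole counts for TC-71 (Subread, by its name), as deposited. Neither is scaled to depth, and the line of the TC-32 and TC-71 columns rests on the table name. The submitters' processing notes name GRCh38/hg38, cutadapt 4.4, STAR 2.7.3, featureCounts, Subread 2.0.3 and limma 3.38.3, with no role or order. The annotation release and strand setting are not given in the sources used here.

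Expected counts were rounded. In R 4.3.3 each line was fitted with edgeR 4.0.16 (filterByExpr, TMM, robust quasi-likelihood F-test, default prior count) on all its genes, with Benjamini-Hochberg adjustment over the genes tested and a call at an adjusted p under 0.05. Standard errors and 95% intervals are from unshrunken coefficients. Differences between lines are interaction contrasts in one model of 6 group means. CPM per kb uses exon lengths from GENCODE 44, as do positions. The ratio of EZH2 to EZH1 was taken on the counts as deposited, with none added, and tested by an exact permutation test. For the distances between genes and the naming rule below, 0.5 counts were added before log2 CPM was taken. Each fit was checked on simulated counts in which 200 genes differed 2-fold: between 97% and 99.5% of them were recovered. Between 2.97% and 7.18% of the calls were false. That share was past the 0.05 aimed for in A673 (5.24%), A673 minus TC-71 (6.13%) and TC-32 minus TC-71 (7.18%). Far fewer genes differed in the simulated counts than were called in the data. The changed genes were drawn only from well-counted genes, and all genes of a line were given the same spread. The recovery therefore does not cover scarce or more variable genes.

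Each result was recomputed with DESeq2 1.42.0, limma-voom (limma 3.58.1), RLE factors, scaling by library size alone, every gene kept whatever its counts, a minimum mean of 10 counts, expected counts left unrounded, the replicate number as a block, each library left out, and only 12 libraries for a difference. The summing of BMI1 with COMMD3-BMI1 and of SUZ12 with SUZ12P was added after seeing the data. The members and lists were chosen with earlier results of these data known. From each list at most 3 genes called in the same direction in all lines, with the largest smallest change, and at most 1 called in opposite directions were named, if their mean log2 CPM reached 0 in each line; lists of at most 3 genes were named whole. The 5 genes nearest to EZH2 and to CBX2 were also named. Of 105 list genes, 104 matched by symbol and 1 by identifier. One further gene of the PRC1 list, and shares computed with it, are not reported here. Other lines and siRNAs of the series are not analysed here.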

Additional observations from a re-analysis of the deposited data

Results flagged for a closer look

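The results below were singled out because the effect of siFLI1 on a member differed between 2 lines by a test of the difference itself, at an edgeR adjusted p under 0.05. Values are differences of log2 fold changes.

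For TC-32 minus A673, EZH2 was at -1.19, EED at -0.96, SUZ12 at -0.68 and RBBP4 at -0.61, so that these PRC2 genes fell further in TC-32. In the same contrast JARID2 was at 1.26, CBX8 at 0.94 and EZH1 at 0.77, with a higher value in TC-32. For TC-32 minus TC-71, EZH2 was at -1.14, EED at -0.75, SUZ12 at -0.67, RBBP4 at -0.61 and CBX2 at -0.41, while JARID2 was at 0.77. For A673 minus TC-71, CBX8 was at -0.73, EZH1 at -0.65, JARID2 at -0.49, CBX2 at -0.46 and BMI1 at -0.32, while EED was at 0.21. JARID2 is the member whose groups of libraries did not overlap in any line and whose direction was not shared, higher in all 3 siFLI1 libraries of TC-32 and lower in all 3 of A673.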

How the results depend on the processing

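Of 948 recomputed values of the members' effects and differences, 892 kept their direction and their side of the threshold, 27 lost the call, 11 gained it and 18 turned sign. Of 1025 recomputed values of the other named genes, 1012 kept both. The number of members called stayed at 8 in TC-32, while the TC-71 number ranged from 5 to 8 and that of A673 was 8 or 9. Members whose effect differed numbered 7 for TC-32 minus A673, 6 to 8 for TC-32 minus TC-71 and 4 to 6 for A673 minus TC-71. All sign changes were of values that did not pass the test. With library size alone the median over all A673 genes moved from -0.007 to -0.11, EZH2 for A673 minus TC-71 turned to -0.0079, SUZ12 to -0.044 and MTF2 in TC-71 to -0.0052. With RLE factors RBBP4 for A673 minus TC-71 turned to 0.04 and MTF2 in TC-71 to -0.0028, and with DESeq2 they turned to 0.04 and -0.0029. With no low-count filter RBBP4 for A673 minus TC-71 turned to 0.03 and KDM6A in TC-32 to -0.0015. With only 12 libraries CBX2 for TC-32 minus A673 turned to -0.015 and RBBP4 for A673 minus TC-71 to 0.065. With SUZ12P summed, SUZ12 for A673 minus TC-71 turned to -0.1. FOXK1 in TC-32 passed the test with RLE factors (0.11) and with library size alone (0.15). Leaving out each library in turn gave these ranges: CBX8 in TC-32 from -0.027 to 0.11, KDM6A in TC-32 from -0.027 to 0.064, MTF2 in TC-71 from -0.032 to 0.033, CBX7 in TC-71 from -0.12 to 0.013, CBX2 for TC-32 minus A673 from -0.0067 to 0.12, SUZ12 for A673 minus TC-71 from -0.037 to 0.046, and RBBP4 for A673 minus TC-71 from -0.047 to 0.012. The cause was not tested. The labels share replicate numbers, but correlations of same-numbered libraries were between -0.07 and 0.062 and in each line 1 of 3 correlated best with its own number, so the numbers were not taken as pairs. With the replicate block, EED in A673 had a log2 fold change of -0.12 (edgeR adjusted p = 0.0705) and for A673 minus TC-71 0.21 (0.0677), both without a call; no other member lost or gained a call under the block. A673 has the deepest libraries, and its standard errors were the smallest of the 3 lines for 7 of the 9 members.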
